A study of Mus musculus and Homo sapiens with 22 samples.

Results

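Among the PROX1 peaks of adult mouse liver, 1903 of 50159 (3.79%) had their summit in an annotated exon, away from any promoter, and lay where no peak was called in fibroblasts that overexpressed Prox1. They were chosen by position and by the called peaks alone. The summit of a member was more than 1 kb from every transcription start site (TSS) and inside an exon of a GENCODE M21 gene, whether coding, untranslated (UTR) or noncoding, and the liver peak overlapped no peak of the fibroblast list by a single base. The position in an exon, the distance from a TSS, the liver call and the lack of a fibroblast call are therefore properties of the selection and not results. Sequence at the summits and the human cell line were not used to choose them.

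The measurement was CUT&RUN: nuclei are incubated with an antibody, a nuclease tethered to it cuts the DNA near the bound protein, and the released fragments are sequenced. There were 22 samples, in 6 groups. Liver nuclei came from untreated C57BL/6J mice of 2 to 3 months, labelled hepatocyte, and were profiled with an antibody against the endogenous protein (5 samples) or a nonspecific IgG (5 samples). Mouse embryonic fibroblasts (MEFs) were primary C57BL/6N cells from E13.5 embryos that carried lentiviral rtTA and tetO-FLAG-mmProx1 and received doxycycline for 2 days at 2 µg/ml. They were profiled with an antibody to the FLAG tag (3 samples) or IgG (3 samples), and the IgG samples carried the same overexpression. Hep3B is an established human hepatocellular carcinoma line, here selected for an inducible FLAG-tagged human PROX1, which received doxycycline at the same dose and for the same 2 days, with 3 FLAG and 3 IgG samples that both overexpressed the factor. The tissue, the antibody, the level and source of the factor and the strain all differ between liver and MEFs, so that a liver-only call cannot be assigned to one of them: they cannot be told apart. One list of peaks was used for each material, pooled by the authors over the replicates, so each peak carries 1 value and no spread between animals or cultures. Every p below describes peaks in these lists, not animals.

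PROX1 is a homeodomain transcription factor of hepatocytes, lymphatic endothelium and several other tissues, and in liver it acts largely as a repressor and binds to nuclear receptors such as HNF4A and LRH-1 (Nr5a2), which read AGGTCA-like sequences. Transcription factors bind mostly at promoters, introns and intergenic enhancers, but exons are also part of chromatin, and a stretch of DNA can carry codons or a UTR together with a binding site. Exons of mRNA, and above all coding exons, are richer in GC and poorer in repeats than introns, and coding sequence is conserved between mouse and human for reasons that have nothing to do with binding.

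The sequences that the results below turn on are those of the hepatocyte-factor motifs centred within 15 bp of a summit. For each motif the strongest members in a coding exon, a UTR or a noncoding exon were considered, and the ones shown carry the motifs that were most frequent at summits or lie in genes of known liver function, apart from the match to the PROX1 consensus, shown because it is the motif of the factor itself. All are 30 bases of GRCm38, read from the RefSeq copy of the assembly, 5′ to 3′ on the strand that carries the motif, with the motif in capitals. The first lines hold the site of HNF4A, a nuclear receptor that controls much of hepatocyte gene expression (CAAAGTCCA with up to 1 mismatch), in a coding exon (exon 21 of 93 of Herc2, minus strand of chr7:56121597-56121626) and in a 3′ UTR (last exon of Fam120b, plus strand of chr17:15431776-15431805).
Herc2: actctgctgctCAAAGTCCAgacatgagga
Fam120b: gaaacaggatCAATGTCCAgactctgccct

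The nuclear receptor core AGGTCA was shown by coding exon 7 of Stard13, which encodes a GTPase-activating protein (plus strand of chr5:151059625-151059654), and by a noncoding transcript of Mical3 (minus strand of chr6:121017775-121017804). The direct repeat with 1 spacing base, DR1, is the element of HNF4A and of PPAR-RXR dimers, and was shown by the 3′ UTR of Angptl4, a secreted inhibitor of lipoprotein lipase (minus strand of chr17:33774838-33774867). In the same way the C/EBP core TTGCNNAA was seen in coding exon 6 of Gstm1, a glutathione transferase (minus strand of chr3:108015088-108015117), the NFI core TTGGCA in the 3′ UTR of Pdk4, a kinase that restrains pyruvate oxidation (minus strand of chr6:5485205-5485234), and the ONECUT core ATCGAT in coding exon 5 of the lipid droplet gene Cidec (plus strand of chr6:113428246-113428275). The last line is the match to the PROX1 consensus in the same summit window of Stard13 (plus strand of chr5:151059636-151059665).
Stard13: ttcacagaaaccAGGTCAtgcaaggcccct
Mical3: ctgttccaacttAGGTCAtcgtgtggaagg
Angptl4: aagtgaataGTTTCAAAGTTCAagtaaaca
Gstm1: tggctgttccaTTGCCAAAccctttgctgg
Pdk4: cctgcttctcctTTGGCAatgcaaaatgac
Cidec: tacccgggccacATCGATcttcttagttgg
Stard13 (PROX1 consensus): caggtcatgCAAGGCCCCTGGggcgctctg

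Most members sat in exons of messenger RNAs. The summit was in a coding exon in 491 (25.8%), in a 3′ UTR in 659 (34.6%) and in a 5′ UTR in 27 (1.42%), together 1177 (61.9%, 95% Wilson interval 59.7 to 64.0). A further 348 (18.3%) lay in an exon of a noncoding transcript of a protein-coding gene, of which 275 were retained-intron transcripts, and 334 of the 348 were inside the span of a protein-coding transcript of some gene. The remaining 378 (19.9%) lay in noncoding genes, with 141 in lincRNAs, 108 in TEC loci (transcripts still to be tested experimentally) and 75 in antisense genes, and 167 of these 378 were inside the body of a protein-coding gene. Hence for many noncoding members the same base is also intron of a coding gene. Only the coding and UTR members are exonic in a transcript with an annotated coding sequence, and not all such transcripts are classed as protein-coding.

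Exons and introns held peaks at similar densities. Annotated exons made up 3.39% of the bases more than 1 kb from TSSs (84.3 Mb) and carried 22.6 members per Mb, beside 21.6 liver-only peaks per Mb of intron and 8.73 per Mb of intergenic sequence. By class the density was 19.5 per Mb in coding exons, 21.3 in 3′ UTRs, 23.8 in noncoding genes, 29.6 in noncoding transcripts of coding genes and 40.0 in 5′ UTRs, where it rested on 27 peaks. These densities describe the lists, and no test was made of them, because exon position was part of the rule.

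Of all 2145 liver peaks in exons away from promoters, 242 (11.3%) overlapped a MEF peak and were therefore not members. The share that overlapped was lowest in coding exons, 7.18% (38 of 529, interval 5.28 to 9.71), and was 10.7% in 3′ UTRs (79 of 738), 13% in noncoding transcripts of coding genes (52 of 400), 15.1% in noncoding genes (67 of 445) and 18.2% in 5′ UTRs (6 of 33). These shares describe the lists. No test was made of them, because the overlap with MEF peaks and the exon position were both part of the rule. The classes also differed in distance from a TSS. In members its median was 5260 bp in coding exons, 5571 bp in 3′ UTRs and 1551 bp in 5′ UTRs. It was 2550 bp in noncoding transcripts of coding genes and 2750 bp in noncoding genes. The part of this distance in the shares and in the densities was not tested.

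**Figure D1:**
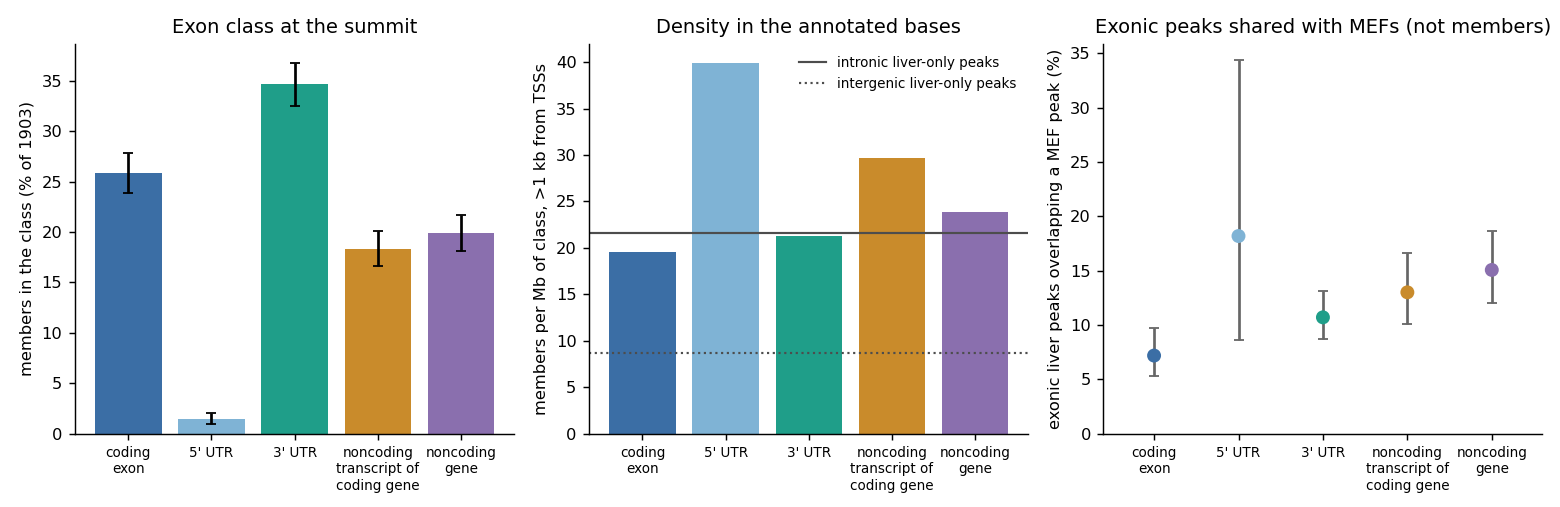
Exon class of the 1903 members. Left, share of members in each class (bars, with 95% Wilson intervals). Middle, members per Mb of the class's bases more than 1 kb from TSSs (bars), with lines for liver-only peaks in introns (solid, 21.6) and between genes (dotted, 8.73). Right, share of exonic liver peaks that overlapped a MEF peak (points, 95% Wilson intervals), 7.18% in coding exons, given without a test.

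A coding exon is short and a CUT&RUN peak is not. Exons holding a coding member had a median length of 184 bp, and 361 of the 491 (73.5%) were shorter than the peak itself, so that a median of 42.0% of the peak's bases fell in that exon. The summit was a median of 48 bp from the nearer end of the exon, and 388 of the 491 exons (79.0%) were internal. Members in 3′ UTRs were placed otherwise: the exon had a median length of 2647 bp, 630 of 659 (95.6%) were the last exon of the transcript, the summit was a median of 570 bp from an exon end, and the median peak lay wholly in the exon. The coding class thus contains many peaks that extend over an exon and its flanking introns, whereas a typical 3′ UTR peak was confined to the exon.

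The members resembled the whole liver list in strength. Their summit −log10 p, the significance that the authors' caller gave to the highest point, had a median of 12.3 and ran from 6.22 to 28.0, against a median of 12.2 in the whole list and 12.4 in intronic liver-only peaks. By class the medians were 12.1 (coding), 12.4 (5′ UTR), 12.2 (3′ UTR), 12.3 (noncoding transcripts) and 12.6 (noncoding genes). The top 1% of the list held 13 members (0.683% of them). Peak width had a median of 501 bp with quartiles of 344 and 776 bp and a range of 120 to 5695 bp, and 274 members (14.4%) were at least 1 kb wide. The distance from the summit to the nearest TSS had a median of 4143 bp, 458 members lay within 2 kb and 404 more than 10 kb away. Another liver summit lay within 5 kb of 70.2% of members. Strength and width come from the calls that chose the members and are given without a test.

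**Figure D2:**
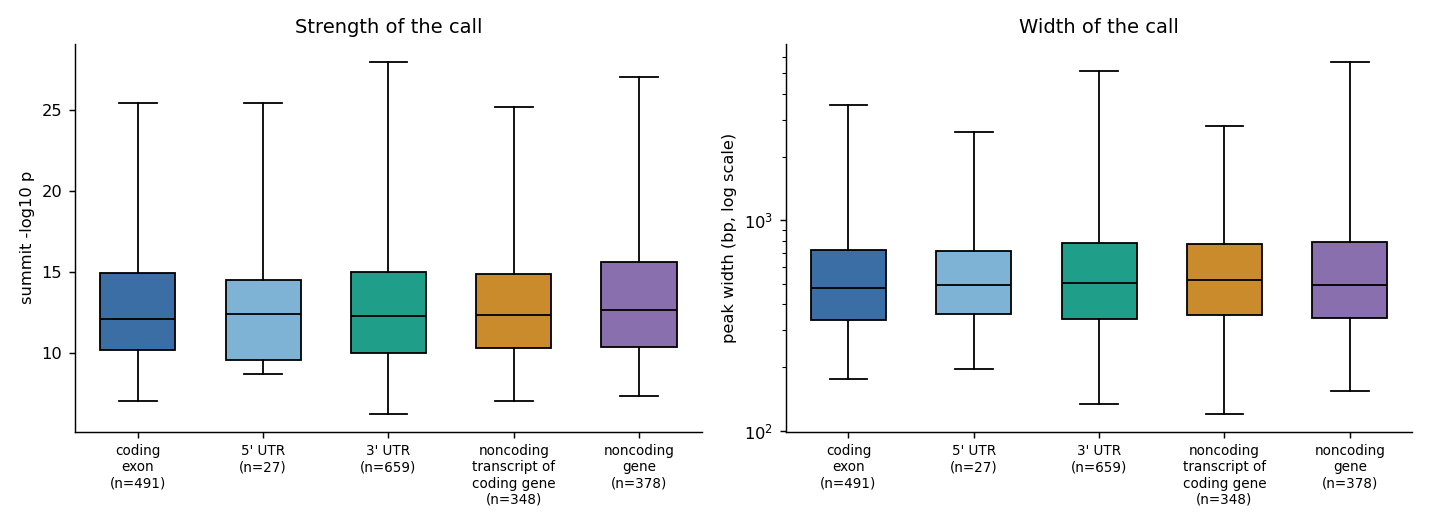
Summit −log10 p (left) and peak width in bp on a log scale (right) of the members in each exon class. Boxes give the quartiles and the median, whiskers the lowest and highest member. The 5 classes had nearly the same medians, 12.1 to 12.6 in strength and 476 to 519 bp in width.

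The strongest coding-exon members lay in genes of diverse function. The highest summit −log10 p was 25.4 in Cpn2, which encodes the large subunit of the plasma carboxypeptidase N, in a peak 3531 bp wide over exon 2 of 2 (chr16:30257278-30260808). Cep85, a centrosomal protein, followed with 25.1 in exon 4 of 14, and the zinc finger gene Gzf1 with 24.0 in exon 4 of 6. Cwf19l1 reached 23.2 in its last exon. Pparg, the nuclear receptor of fat storage, had 22.8 in exon 6 of 8 (chr6:115462257-115464005), a peak of 1749 bp against an exon of 200 bp. Stard13 reached 22.6 and the BRCA1-binding gene Brap 22.4. In Met, the receptor of hepatocyte growth factor, a summit of 22.5 in exon 3 of 22 was followed by a summit of 19.4 in exon 15 of 22.

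In 3′ UTRs the highest values were 28.0 in Clec9a, a lectin receptor of dendritic cells, and 27.5 in Rnf144b, an E3 ubiquitin ligase, whose peak of 5138 bp ran beyond the last exon of 3631 bp. Dcun1d1, a neddylation factor, had 25.6, Fgb, which encodes the fibrinogen beta chain, 24.98 in a peak of 3999 bp, and Rassf4 23.7. In 5′ UTRs Faf2, a factor of protein degradation at the endoplasmic reticulum, had 25.4 in an exon of 75 bp, 7614 bp from the nearest TSS, Numb, an inhibitor of Notch signalling, had 18.7 and the myo-inositol transporter Slc5a3 had 17.5. The 5 strongest noncoding-exon members were in the sense-intronic RNA Dmrt1i (27.1), a noncoding transcript of the mitochondrial reductase gene Marc2 (25.2), the lincRNA AI463229 (24.3), the TEC locus Gm42633 (23.7) and a noncoding transcript of Frmd4b (22.9).

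Near the limits of the rule, the calls changed by small distances. The members nearest to the TSS limit were a 3′ UTR peak of Nfix, 1001 bp from a TSS, and the exon 3 peak of Met, 1005 bp from one. Just outside it were the coding peak of Cyp8b1, the sterol 12-alpha-hydroxylase of bile acid synthesis, at 997 bp and a peak of the noncoding gene Gm35808 at 995 bp. On the MEF side, the 3′ UTR peak of Stk16 was 13 bp and that of Cited2 23 bp from a MEF peak and both counted as liver-only, whereas coding peaks of Mettl26 and Agap3 overlapped one by 8 bp each and did not. In all 165 members (8.67%) had a MEF peak within 1 kb.

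The members' exons belonged to 1262 of 21924 protein-coding genes (5.76%). By the exon chosen to stand for each member, 178 of 1250 genes held 2 members and 43 held 3 or more, and 152 of 1727 exons held at least 2. Klhdc7a, a kelch-domain gene with a single exon of 7807 bp, held the most, 6 members with summit −log10 p from 8.39 to 12.0, of which 4 were in the 3′ UTR and 2 in the coding part. Mettl16, an RNA methyltransferase gene, held 5 in a last exon of 11367 bp, from 8.48 to 20.3. There were 4 members each in Lrrc8d, a subunit of volume-regulated anion channels (12.4 to 16.7), in Inhbe, which encodes the liver-secreted activin E subunit (9.05 to 15.7), in the nuclear receptor Rora, all in its last exon of 9450 bp (9.23 to 14.2), in the lipid kinase Pik3c2g (7.65 to 15.7) and in Ppp1r3b, the subunit that brings protein phosphatase 1 to liver glycogen (8.61 to 16.9). Met held 3. In Klhdc7a, Mettl16 and Rora a long exon thus contributed a cluster of separate calls. By the same choice of exon, the members of Pik3c2g lay in exons of 93, 157, 170 and 2391 bp. Those of Lrrc8d and Met were also spread over several exons. Members of a cluster or of the same gene share their locus and are not independent of each other.

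Genes with a member were often called elsewhere too. Of the 1262, 781 (61.9%) had a liver peak within 1 kb of a TSS, beside 26.5% of all protein-coding genes, 848 (67.2%) also held an intronic liver-only peak, beside 23.8%, and 942 (74.6%) had a MEF peak at a promoter, beside 55.1%. A promoter peak in neither mouse list was seen for 171 (13.55%), beside 40.5%. These shares carry no test, and gene length was not matched.

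Lists of genes were read against the background of 5.76% and received no set test. The 7 hepatocyte lists held members in 17.4% to 37.5% of their genes. Most genes of these lists also had a liver promoter peak, from 19 of 23 lipoprotein genes to 24 of 25 metabolic enzyme genes. Among all protein-coding genes, 781 of the 5818 with a liver promoter peak held a member. So did 848 of the 5226 with an intronic liver-only peak. The background was not matched for such peaks. The 3 lists for other cells held members in 4.00% to 8.00%, or 1 of 25 biliary genes (Pkhd1), 2 of 25 fibroblast genes (Snai2 and Zeb1) and 1 of 25 muscle and neuron genes (Neb). Promoter peaks at genes of the same lists matched the labels of the tissues more clearly in some lists than in others. Of 24 plasma protein genes 21 had a liver and 6 a MEF promoter peak. For 25 fibroblast genes the counts were 3 and 21, and for 25 hepatocyte transcription factors 21 and 15. They were 7 and 13 for 25 biliary genes and 3 and 10 for 25 muscle and neuron genes. Over all protein-coding genes the shares were 26.5% in liver and 55.1% in MEFs. Genes of the hepatocyte lists also held other liver peaks. Intronic liver-only peaks were present in 15 of 23 lipoprotein genes, 17 of the 24 plasma protein genes and 24 of the 25 metabolic enzyme genes. The counts were 5 of 25 biliary, 4 of 25 fibroblast and 6 of 25 muscle and neuron genes. The share over all protein-coding genes was 23.8%.

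**Figure D3:**
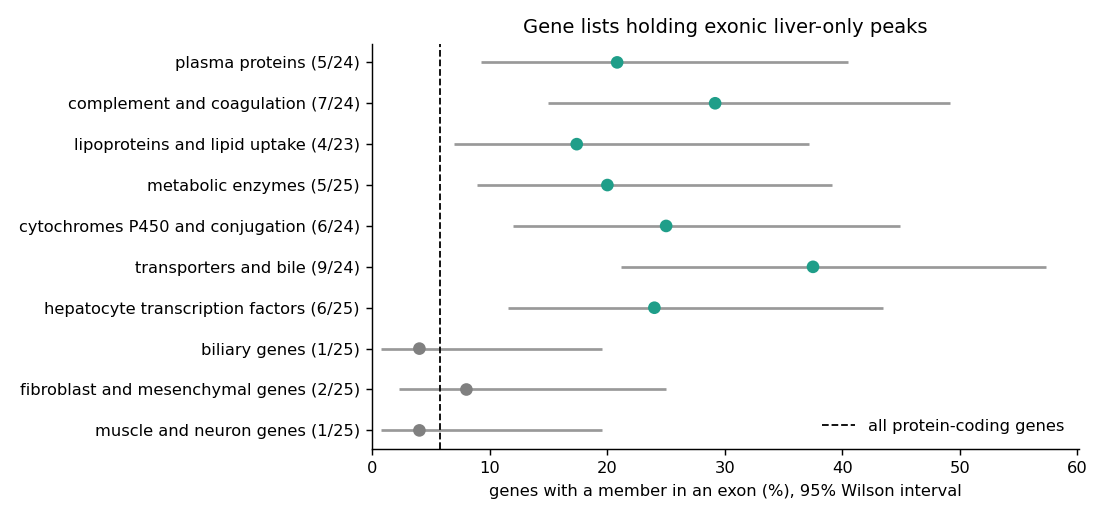
Share of the genes of each list with a member in an exon (points, 95% Wilson intervals, counts in brackets), with the share over all protein-coding genes as a dashed line (5.76%). The 7 hepatocyte lists (green) lay between 17.4% and 37.5% and the 3 lists for other cells (grey) between 4.00% and 8.00%. The dashed line was not matched for other liver peaks of the genes.

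Transporter and bile genes held members most often, 9 of 24 (37.5%, interval 21.2 to 57.3). The strongest was in a noncoding transcript of Abcb4, the phospholipid exporter of the bile canaliculus, with a summit −log10 p of 16.7. Slc2a2, the glucose transporter of hepatocytes, had 15.3 at the start of coding exon 6 of 11, the mitochondrial carrier Slc25a47 14.0 in exon 5 of 6 and the anion transporter Slco1b2 12.6 in a 5′ UTR exon of 84 bp. The others were Slc10a1 (the bile salt uptake carrier, 12.2 in the 3′ UTR), Slc39a14 (11.2), Slc13a3 (10.0), Slc27a5 (9.60) and Slc38a4 (9.44). In complement and coagulation 7 of 24 genes held members (29.2%; C5 is not a symbol of this annotation). All 3 fibrinogen genes were among them: Fgb with 24.98 in the 3′ UTR and 10.6 in coding exon 2, Fga with 11.4 in coding exon 4 of 6 and Fgg with 9.46 in the 3′ UTR. They lie side by side on chromosome 3, so these 4 peaks share a locus. Serpinc1, the gene of antithrombin, had 21.6 in a noncoding transcript and F2, the gene of prothrombin, 11.2 in an exon of 25 bp. Serpind1 and C3 had 9.37 and 8.48.

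Members lay in 6 of 24 genes of cytochromes P450 and conjugation (25%). Gstm1 had the strongest, 20.0 in a peak of 3147 bp, ahead of the 3′ UTR of the flavin monooxygenase Fmo5 (15.5 and 9.25), a noncoding transcript of the carboxylesterase Ces3a (14.0) and the 3′ UTR of Cyp7a1, the rate-limiting enzyme of bile acid synthesis (11.6). Of 25 metabolic enzymes 5 held members (20.0%), with 18.1 in the 3′ UTR of Hal, which starts histidine breakdown, 10.1 in the tyrosine enzyme Tat and 9.25 in coding exon 6 of Pck1, an enzyme of gluconeogenesis. Among 24 plasma protein genes 5 held members (20.8%), led by Afm (14.1) and Serpina3k (13.46), before Cp (10.0), the gene of ceruloplasmin, and Azgp1 (9.27). They were present in 4 of 23 lipoprotein genes (17.4%). Lrp1, the remnant receptor, had 3: 15.6 in the 3′ UTR of a short transcript with 7 exons, and 11.3 and 10.8 in coding exons 34 and 32 of 89. Scarb1, the HDL receptor, had 14.0 and Lipc, hepatic lipase, 11.5.

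Of 25 hepatocyte transcription factors 6 held members (24.0%, interval 11.5 to 43.4), and Prox1 was one of them. Its 3′ UTR carried 3 separate peaks, with summit −log10 p of 21.4 (chr1:190121555-190122980), 16.3 (chr1:190120805-190121514) and 9.11 (chr1:190119483-190119717), all in the last exon, 46111 to 49092 bp from the nearest TSS. Prox1 also had a liver promoter peak, and its promoter had no MEF peak. The fibroblasts carried a Prox1 transgene and the liver did not, and the nearest MEF peak was 145739 to 147811 bp from these peaks. The 3′ UTR of Nr5a2 held peaks of 14.2 and 10.3. Esrra had 14.1 in a noncoding transcript, Nr0b2, the corepressor SHP, 13.2 in coding exon 2 of 2, Hnf4a 9.88 in the 3′ UTR and Foxa1 8.77 in the coding part of an exon and 8.71 in the 3′ UTR. Outside the hepatocyte lists, Snai2, a driver of mesenchymal transition, had 16.0 in coding exon 3 of 3, Pkhd1 10.9 in its last exon, Zeb1 10.3 in coding exon 2 of 8 and the giant muscle gene Neb 7.99 in coding exon 26 of 157.

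The sequence under the summits was measured next, as it played no part in the choice of members. Within 50 bp of each summit, 11 motifs were searched on both strands and compared with a window of equal size 200 bp away at the same locus. For coding members, with a median exon of 184 bp, this control window was often centred outside the exon. Sequence type and GC content were not matched between the windows. Of the 11, 8 were more frequent at the summit (exact binomial test on peaks that hold the motif in 1 of the windows, Benjamini-Hochberg over 11). AGGTCA was present at 19.5% of summits and 6.83% of control windows, a ratio of 2.85 (adjusted exact p = 6.28e-30). The HNF4 site was present at 13.6% and 3.31%, a ratio of 4.10 (adjusted exact p = 1.65e-30), and DR1 at 3.31% and 0.315%, 63 against 6 windows (adjusted exact p = 1.23e-12). The share over all 50159 liver summits was 16.5% for AGGTCA, 11.2% for the HNF4 site and 3.11% for DR1. At least 1 of these 3 receptor patterns was found at 600 member summits (31.5%). The patterns are related: the HNF4 site shared its window with AGGTCA in 47 members and with DR1 in 17 of the 63 that held DR1.

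Motifs of other factors rose as well. The NFI core TTGGCA was at 14.0% of summits and 6.31% of control windows (ratio 2.23, adjusted exact p = 1.99e-14) and the C/EBP core at 10.5% and 4.68% (ratio 2.24, adjusted exact p = 6.47e-11). The CTCF core, of the insulator protein, was at 2.31% and 0.631% (adjusted exact p = 3.83e-05), the ONECUT core ATCGAT at 0.893% and 0.263% (adjusted exact p = 0.0266) and the FOX core TGTTTAC at 2.79% and 1.63% (adjusted exact p = 0.0294), although the FOX ratio fell below 1 when the window was narrowed to 25 bp on each side. Over the whole liver list the shares were 12.1% for NFI, 9.07% for C/EBP, 3.24% for CTCF, 1.09% for ONECUT and 3.56% for FOX. Together 969 members (50.9%) held at least 1 of the 8 motifs at the summit, and 405 (21.3%) did in the control window. The 8 were picked for their excess in these same windows, so the direction of this difference was fixed by the choice. The other three did not pass: the HNF1 core GTTAAT was at 4.20% and 4.41% (4.35% of all liver summits), CCAAT, the core of NF-Y, at 14.7% and 12.8% (14.3%), and the PROX1 consensus, with up to 2 mismatches, at 1.47% and 2.05% (adjusted exact p = 0.236; 2.15% of all liver summits). This consensus was written from general knowledge, and the search says only that these letters were not more frequent in the windows.

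Matches of AGGTCA, the HNF4 site and the NFI core were centred on the summits. In the 25 bp bins on either side of the summit, AGGTCA occurred 6.67 and 6.10 times per 100 members, the HNF4 site 4.26 and 4.83 times and the NFI core 4.20 and 4.94 times, beside 2.84, 0.946 and 1.47 times in the outermost bin on the lower-coordinate side. C/EBP formed a lower and broader rise, 2.89 and 3.10 beside 1.26. Some rarer motifs were not centred in this way. DR1 stayed between 0.841 and 1.05 in the bins within 50 bp of the summit. ONECUT was highest at 50 to 75 bp on the higher-coordinate side, 0.736 beside 0.263 and 0.210 at the summit. FOX had 0.263 and 0.788 at the summit, beside 0.263 in the outermost bin. Intronic liver-only peaks gave similar profiles with 5.98 and 5.66 AGGTCA and 3.78 and 3.88 HNF4 sites per 100 peaks.

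**Figure D4:**
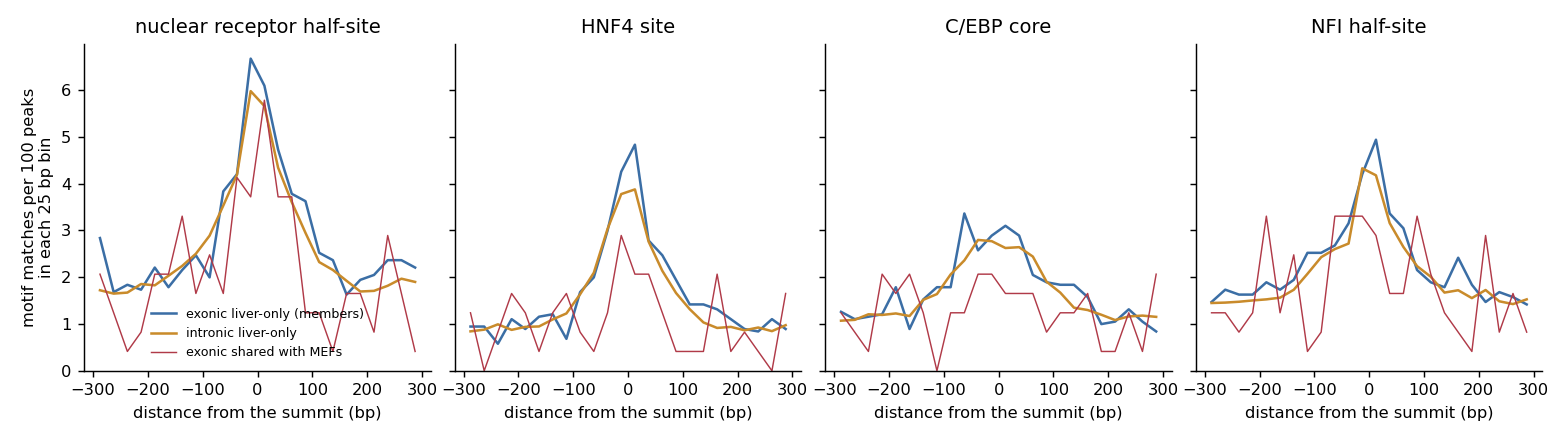
Motif matches per 100 peaks in 25 bp bins against the distance from the summit, for 4 motifs, in members (blue), intronic liver-only peaks (ochre) and exonic peaks shared with MEFs (red, 242 peaks). In members, matches of the nuclear receptor core, the HNF4 site and the NFI core rose within 100 bp of the summit, and AGGTCA reached 6.67 per 100 members.

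The motifs were present in coding exons as in other classes. AGGTCA was at 20.8% of summits in coding exons (102 of 491), 19.4% in 3′ UTRs (128 of 659), 20.7% in noncoding transcripts and 17.99% in noncoding genes. The HNF4 site was at 13.4%, 14.4%, 14.1% and 12.2% in the same order, and all these intervals overlapped. Among the 27 members in 5′ UTRs, AGGTCA was in 1 and the HNF4 site in 2. By strength, the HNF4 site was at 10.5% of summits in the weakest quartile of members (interval 8.06 to 13.6) and at 16.4% in the strongest (interval 13.3 to 20.0), and AGGTCA was at 16.8% and 20.2%. In the quartiles between, in order of strength, the HNF4 site was at 13.45% and 13.9% and AGGTCA at 22.7% and 18.3%. The intervals of the weakest and strongest quartiles overlapped for both motifs, which does not show that the shares were equal. No test was made. These shares are given as a description.

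Against liver-only peaks in introns, no difference in motif content passed. This held for all 11 motifs in a two-sided Fisher's exact test over peaks (1903 members, 21945 intronic peaks, adjusted over 28 tests), and 2 had an unadjusted p below 0.05. These were the HNF4 site, 13.6% against 12.0% (odds ratio 1.15, interval 0.998 to 1.32, adjusted exact p = 0.168), and the FOX core, 2.79% against 3.89% (odds ratio 0.708, interval 0.524 to 0.940, adjusted exact p = 0.0684). For AGGTCA the shares were 19.5% and 17.96%, with an odds ratio of 1.11 and an interval of 0.980 to 1.25.

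Against exonic peaks that were shared with MEFs, 2 motifs differed. The HNF4 site was more frequent in members, 13.6% (258 of 1903) against 6.20% (15 of 242), with an odds ratio of 2.37 (interval 1.38 to 4.38, adjusted exact p = 0.00380). The CTCF core was less frequent, 2.31% (44 of 1903) against 12.0% (29 of 242), with an odds ratio of 0.174 (interval 0.104 to 0.295, adjusted exact p = 1.98e-09). Shares of AGGTCA (19.5% and 16.1%), C/EBP (10.5% and 7.44%), NFI (14.0% and 10.7%) and the PROX1 consensus (1.47% and 1.65%) did not pass. The HNF4 difference lost its call in 4 of the alternatives, with the whole peak searched (odds ratio 1.32, adjusted exact p = 0.181), in peaks above the liver median strength (1.57, adjusted exact p = 0.429), in the 25 bp windows (2.23, adjusted exact p = 0.0742) and without a mismatch (1.32, adjusted exact p = 1). The CTCF difference lost it in peaks above the liver median (0.281, adjusted exact p = 0.0670).

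**Figure D5:**
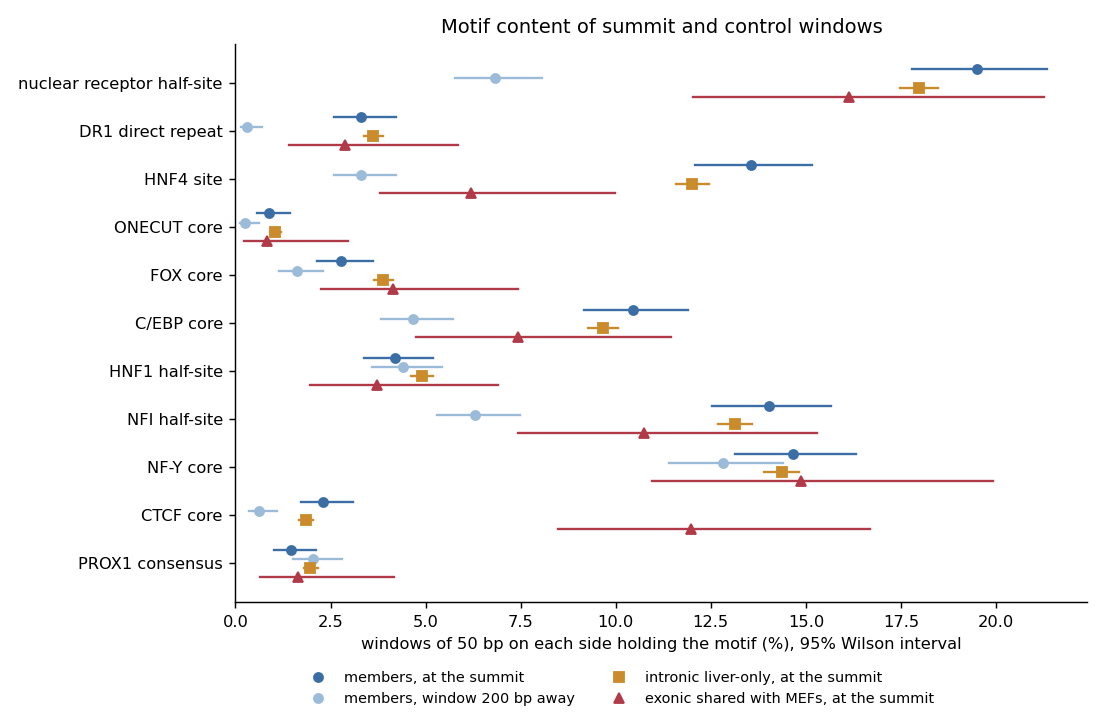
Share of windows of 50 bp on each side that hold each of 11 motifs (points, 95% Wilson intervals): members at the summit (dark blue), members 200 bp away (light blue), intronic liver-only summits (ochre squares) and exonic summits shared with MEFs (red triangles). Members stood apart from their own control windows for AGGTCA, HNF4, C/EBP and NFI, and from shared exonic peaks for HNF4 (13.6% and 6.20%) and CTCF (2.31% and 12.0%).

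Base composition moved with these contrasts. The share of summit windows with a GC content above the median of all liver peaks (48.5%) was 49.1% in members, higher than in intronic liver-only peaks (40.0%, odds ratio 1.45, adjusted exact p = 3.73e-13) and lower than in exonic shared peaks (68.6%, odds ratio 0.442, adjusted exact p = 7.27e-08). The part of GC content in the HNF4 and CTCF differences was not tested. The median GC content was 51.5% in coding exons, 48.5% in 3′ UTRs and 46.5% in noncoding transcripts of coding genes, against 47.5% in introns. Summits in soft-masked repeats were fewer in members than in introns, 8.88% against 11.9% (odds ratio 0.718, adjusted exact p = 0.000297). The share was 2.65% in coding exons, 3.70% in 5′ UTRs and 8.04% in 3′ UTRs, and in noncoding transcripts of coding genes (14.4%) and noncoding genes (13.8%) it was above that of introns. Against exonic shared peaks (8.26%) the share of repeats did not pass (adjusted exact p = 0.931).

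The human line gave a readout that the choice of members had not used. For 1119 of the 1262 genes with a member a human protein-coding gene of the same symbol was found, and 687 of these (61.4%) had a Hep3B peak within 1 kb of a TSS. The share was 57.7% (2256 of 3911) in genes that held intronic but no exonic liver-only peaks, an odds ratio of 1.17 with an interval of 1.02 to 1.34 that did not pass after adjustment (adjusted exact p = 0.111). It was 57.5% (65 of 113) in genes with an exonic shared peak but no member (odds ratio 1.17, adjusted exact p = 0.619) and 48.8% over all genes paired by symbol. With the TSS limit at 500 bp or with TSSs of protein-coding transcripts only, the first difference passed, with odds ratios of 1.21 and 1.22.

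Because coding sequence can be matched between species, the position of coding-exon members was also looked up in the human genome. The sequence within 100 bp of the summit was matched by blastn to the human gene of the same symbol (hg38). Of 491 coding members, 427 had such a gene and 398 a match over the summit, with a median identity of 85.2% over a median of 176 bp. All 398 matches overlapped an exon of the human gene by at least 1 base. A Hep3B peak overlapped the matched sequence in 4 of 398 (1.01%, interval 0.392 to 2.56), and one lay within 1 kb in 12 (3.02%, interval 1.73 to 5.20). The 4 were PPARG, FOXA1, AKAP9 and PPP1R21. In PPARG the matched sequence was 94.0% identical over 183 bp (chr3:12405937-12406119, hg38) and the Hep3B peak had a summit −log10 p of 7.02, at 672 bp from a human TSS. In FOXA1 the identity was 82.2% over 213 bp and the peak 6.17, at 2507 bp from a TSS. AKAP9 had 6.40, at 1429 bp from a TSS, and PPP1R21 4.50, at 10115 bp. Of the coding peaks shared with MEFs, 4 of the 31 matched positions had a Hep3B peak (12.9%, interval 5.13 to 28.9). These 4 Hep3B summits were 714 bp (IRGQ), 831 bp (HEXIM1), 2608 bp (SPI1) and 2993 bp (WIPI1) from a human TSS. Both groups lay more than 1 kb from every mouse TSS by the rule, but they were not matched for distance beyond that limit. The share over all liver peaks was not measured, so whether that of members is low among liver peaks cannot be told. The Hep3B list was shorter, with 14369 peaks against 50159 in liver, and its depth is unknown. The lack of a call at a matched position therefore does not show that PROX1 was absent from it.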

How the data were processed

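Peaks were compared by position. Per their methods, the authors trimmed and aligned the reads to mm10 or hg38 (Bowtie 2, 2.4.2 per the labels), and Genrich 0.6.1 merged a group's replicates into a single list. The authors describe sites as found relative to IgG, but their calling command names no control. Of the deposited values, the summit −log10 p served to rank peaks, and the deposited −log10 q served in an alternative. The signal, which the authors' caller sums as an area over the peak, is given for no test, and the deposited score was not used. No value was compared between lists. Areas begin at 500 in liver and 200 in MEFs, so the liver list was held to a stricter minimum. Depth per sample is unknown.

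Here summits were placed on GRCm38 with GENCODE M21 and on hg38 with GENCODE 44. A summit in several exons took the class coding, then 5′ UTR, 3′ UTR, noncoding transcript and noncoding gene. Motifs were searched within 50 bp of summits with the mismatches stated (DR1, HNF4 and CTCF 1, PROX1 2, others none), and the control window lay 200 bp away on the lower-coordinate side. Fisher's exact tests (two-sided, scipy 1.17.1) and Wilson intervals of 95% treat peaks as independent, cover counting error only and describe the lists. The human matches used blastn 2.17.0. Named genes were the strongest members of each class, the genes with most members, the strongest of each of 10 gene lists (245 genes) and the members at the limits of the rule. Genes of the lists outside this rule were added for completeness. The functions were tested on simulated data. The members, lists and tests were chosen with earlier results of these data known. Some genes of the lists are not reported here by name.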

Additional observations from a re-analysis of the deposited data

How the results depend on the processing

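No paired analysis was possible because each list pools its replicates and no column carries a sample, and for the same reason no replicate could be left out. Of 15 alternatives, the number of members moved most with exons of protein-coding transcripts only (1149) and in peaks above the liver median strength (979). The Hep3B odds ratio against introns passed with a TSS limit of 500 bp (1.21) and with protein-coding TSSs only (1.22). Against introns, 1 motif (FOX) became less frequent in members under these same 2 settings, and in windows of 25 bp 1 rose (HNF4) and 1 fell (FOX). Against exonic shared peaks, 2 motifs were more frequent with protein-coding TSSs only (HNF4 and NFI) and with protein-coding exons only (HNF4 and C/EBP), and 0 in peaks above the median, in windows of 25 bp, in whole peaks and without a mismatch. Less frequent there were 0 above the median and 2 in whole peaks (CTCF and the PROX1 consensus). Above the median, 1 motif, the PROX1 consensus, was less frequent at summits than in control windows (ratio 0.333, adjusted exact p = 0.00957). The FOX ratio of summit to control turned to 0.947 in windows of 25 bp. The causes were not tested. Ratios for DR1 and CTCF without a mismatch could not be given, as no control window held either, nor could 3 odds ratios against exonic shared peaks, none of which held the motif (ONECUT with protein-coding exons only, DR1 and the PROX1 consensus with 1 mismatch fewer). The GC differences kept their direction and call in every alternative that changed the members.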
